A study of Drosophila melanogaster with 6 samples.

Results

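Short regions of ubiquitylated histone H2B (H2Bub) that sit in tight chains along chromosome arms 2L, 3L and 3R were examined in late *Drosophila melanogaster* embryos. There were 346 of them, out of 5802 regions in the authors' list for the whole series, called the combined list here. They were selected on measured values of that list. Each lay on 2L, 3L or 3R outside the 2 Mb nearest the centromere, was under 5000 bp wide, overlapped a region in at least 2 of the 3 replicate lists by 1 bp, and had fewer than 3000 uncalled bases to both the previous and the next region. On these parts of the arms the combined list held 3253 regions, of which 2057 were under 5000 bp and 1291 of those were also found in at least 2 replicate lists. The short chained regions made up 26.8% of these 1291.

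Chromatin came from wild-type Oregon-R embryos (the modENCODE line of that strain) at 14 to 16 hr of development, crosslinked with formaldehyde and precipitated with the H2Bub antibody NRO3. The 3 ChIP samples share this genotype and stage, carry no added allele or treatment, and each has an input sample with the same replicate number. Whole embryos were used, so a region averages all cell types present, and fewer cells with the mark cannot be told apart from less mark per cell. Whether the replicates are separate collections of embryos is not said in the labels, and the spread between them may be technical.

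Ubiquitin is attached to a lysine in the tail of H2B by the ligase Bre1 together with the conjugating enzyme Rad6. In flies, yeast and mammals this mark follows elongating RNA polymerase II and lies over the bodies of transcribed genes, where it is linked to methylation of histone H3. It is removed by deubiquitylases, among them Nonstop in the SAGA complex. A region list of the mark is therefore commonly read as a map of transcribed units, and a chain of short regions raises the question of whether its members are separate stretches or parts of a longer one. The values below describe how each replicate drew the members and the gaps between them. Genes are not named, because the coordinates are on FlyBase release 5 and no annotation of that release was used.

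The lists give positions, widths and a deposited score for regions that passed the authors' threshold, and no read counts, so the depth behind each region is unknown. The sources used here do not define the score, and scores are compared within 1 list only. The replicate lists held 5237, 5218 and 5428 regions. Their narrowest region was 1301 bp, against 1001 bp in the combined list. Replicate 1 stood apart from the others in the results that follow, by the members it lacked, and replicate 3 by the gaps it filled.

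The short chained regions were narrow, low-scoring and evenly shared among the arms. Their width ran from 1001 to 4990 bp with a median of 2889.5 bp, and together they held 1030 kb, or 4.72% of the bases in combined regions on these parts of the arms. Scores in the combined list ran from 0.0544 to 1.65 with a median of 0.455, which lay at the median percentile 36.6 of that list, and 66.5% of them scored below its median. Arm 2L held 109 of them (5.19 per Mb), 3L held 113 (5.01 per Mb) and 3R held 124 (4.79 per Mb). They were 11.0%, 10.6% and 10.3% of all regions on these arms. Width and gap limits chose these regions, and their widths and gaps are given as a description.

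Members were spread along the arms and gathered in some stretches. Of the 68 full 1 Mb bins, 6 held none, the median bin held 5 and the highest held 17. That bin was on 2L from 10 to 11 Mb, where 73 regions of any kind lay, and the next was on 3R from 14 to 15 Mb with 15 members among 60 regions. Both bins were chosen after their counts were seen. Bins with more members also held more of the other regions, with a Spearman's rho of 0.559 across the 68 bins. The rule asks for a close region on both sides of each member, and that neighbour need not be a member. A positive rho is therefore partly built in by the selection, and nothing is read from it. The bins also share the same libraries and are not independent.

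The gaps beside members were mostly shorter than 1 kb. The 346 members touched 605 distinct gaps with a median of 877 bp. The rule holds these gaps under 3000 bp, and the 953 other gaps under 3000 bp on these parts of the arms had a median of 858 bp. All gaps there, of any width, had a median of 3345 bp. Of the 605, 211 were under 500 bp, 119 were 500 to under 1000 bp, 169 were 1000 to under 2000 bp and 106 were 2000 to under 3000 bp. Only a few were near zero, with 3 of 0 bp and 14 of 1 to 20 bp. From the start of one member to the start of the next region the median distance was 3939.5 bp. Neither width nor score followed the larger of the 2 gaps closely, with a Spearman's rho of 0.0736 for width and 0.167 for score across the 346 members, which share 1 list.

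Most chains were short and also held a wide region. A chain was taken as an unbroken run of combined regions with gaps under 3000 bp. Members lay in 228 such chains, which held 3 to 11 regions with a median of 4 and spanned 4.78 to 140.2 kb with a median of 23.6 kb. In 171 of the chains at least 1 region was 5000 bp or wider, and the other 57 were made of short regions alone. A single member was found in 152 chains, 2 members in 46 and 3 or more in 30. The combined list covered 87.3% of the summed spans of these chains, while the replicate lists covered 65.7%, 77.1% and 76.3% (mean 73.1% ± 6.36, SD, n = 3).

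The chain with the most members showed all the ways in which replicates drew them. It lay on 3R from 11156003 to 11193573 and held 9 combined regions, 6 of them members, over 37.6 kb. Replicates 1, 2 and 3 drew 8, 7 and 9 regions in it and covered 57.9%, 64.1% and 80.6% of its span. The replicates differed most in its middle.

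The member from 11169305 to 11173101, 3797 bp wide, had a region of its own in every replicate, with scores of 0.591, 0.682 and 0.762 in replicates 1, 2 and 3. Those regions were 3326, 3360 and 3329 bp wide and held 87.9% ± 0.496 of the member's bases (SD, n = 3). It was the most evenly drawn member of the chain. Its neighbour from 11173380 to 11176630 was 3251 bp wide, and 60.3%, 61.7% and 94.4% of it lay in replicate regions. Replicates 1 and 2 stopped short of its end, and replicate 3 ran across the 130 bp gap into the next member.

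That next member, from 11176761 to 11178308, was 1548 bp wide with a combined score of 0.294. It was drawn in replicates 1 and 3 with scores of 0.479 and 0.616 and was missing from replicate 2. The member from 11179812 to 11182756 was the reverse. It was missing from replicate 1, 64.5% of its bases lay in a region of replicate 2 with a score of 0.468, and 99.0% lay in a region of replicate 3 with a score of 0.703. At the right side, the member from 11184995 to 11188049 was drawn by all replicates with scores of 0.629, 0.839 and 0.792, and so was the member at the left, from 11166379 to 11168648, with scores of 0.521, 0.614 and 0.680.

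The next most members, 5, were held by 3 chains, and the 2 with the longest spans are described. The first of these was drawn more alike by the replicates. It lay on 3L from 15527795 to 15603954, spanned 76.2 kb and held 9 regions, of which 3 were 17446, 20055 and 17372 bp wide and 5 were members. The replicates covered 86.2%, 86.4% and 85.9% of its span. Of its members, 4 lay between the wide regions and 1 lay after the last of them.

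In that chain, the member from 15573578 to 15575632 scored 0.469, 0.476 and 0.464 in replicates 1, 2 and 3. The member from 15569208 to 15571698 scored 0.616, 0.649 and 0.892, and 93.9% ± 2.71 of its bases lay in replicate regions (SD, n = 3). The member from 15546885 to 15548884, scored 0.546 and 0.414 in replicates 1 and 2 and was absent from replicate 3. Every replicate drew the 20055 bp region in 2 pieces. The replicate regions over the wide regions scored 0.873 to 1.90, above every member of the chain in the same list.

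The other chain, described next, was drawn less alike. It lay on 2L from 19673305 to 19702268 and held 7 combined regions over 29.0 kb, 5 of them members. Replicate 1 covered 25.7% of the span with 4 regions, replicate 2 covered 47.4% with 7 and replicate 3 covered 79.0% with 7. Only the first of its members was drawn in replicate 1.

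Within it, the member from 19686269 to 19688975 was a region of its own in replicate 2, with a width of 2488 bp and a score of 0.542. The member from 19689061 to 19691507 was likewise separate in replicate 2, with a width of 1445 bp and a score of 0.619. Replicate 3 drew 1 region of 4109 bp, with a score of 0.727, over most of both and the 85 bp between them. Neither was found in replicate 1.

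**Figure D1:**
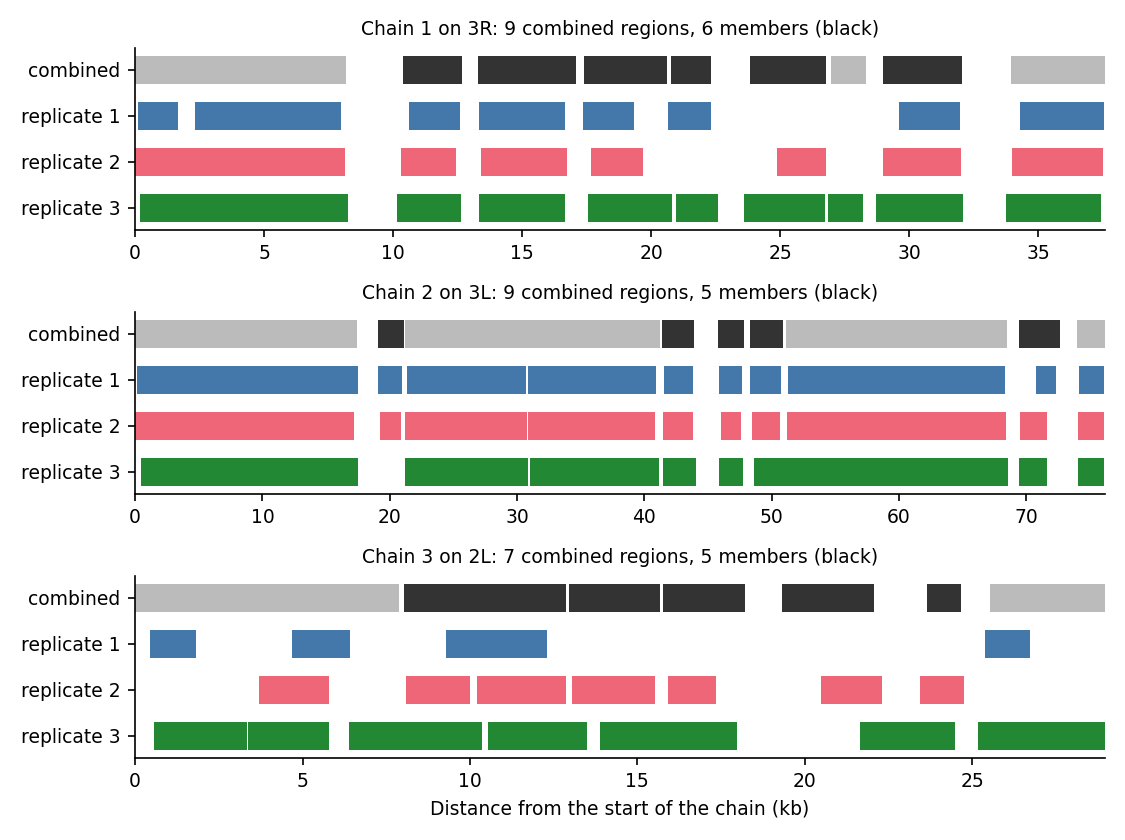
Regions of the combined list (top row of each panel, members in black and other regions in grey) and of the 3 replicate lists, drawn to scale along the chain with the most members and the 2 longest of those with 5 members; the horizontal axis is the distance from the start of the chain in kb. The replicates covered 85.9% to 86.4% of the 3L chain in the middle panel, and 25.7%, 47.4% and 79.0% of the 2L chain in the lowest panel.

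Replicate 1 lacked more of the members than the other replicates did. A region overlapped 256, 327 and 332 of the 346 members in replicates 1, 2 and 3, or 74.0%, 94.5% and 96.0%. Over all 3253 combined regions on these parts of the arms, the shares were 69.7%, 80.0% and 78.3%. All 3 replicates overlapped 223 members (64.5%), against 63.4% of the 3253. The rule asks for at least 2 replicates, so these shares are given beside the background and nothing is read from their difference. Of the 123 members in 2 lists, 90 were missing from replicate 1, 19 from replicate 2 and 14 from replicate 3.

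Members that a replicate lacked were narrower and scored lower in the combined list than those it held. For the 90 missing from replicate 1 the medians were 2219.5 bp in width and 0.377 in score, against 3204.5 bp and 0.531 for the 256 it held. For replicate 2 the medians were 1983 bp and 0.368 against 2971 bp and 0.473, and for replicate 3 they were 2744.5 bp and 0.395 against 2917.5 bp and 0.457. The direction was the same in all 3 lists, with only 19 and 14 members missing from replicates 2 and 3. The rule uses replicate overlap, and the libraries behind the combined list are not stated. These medians are therefore a description with no test. Of the members, 10 were narrower than 1301 bp, the narrowest width in any replicate list.

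Most members were regions of their own in a replicate, and replicate 3 joined the most of them to a neighbour. A member was counted as joined when the replicate region that shared most bases with it also overlapped another combined region. Members were separate in 251, 303 and 242 cases and joined in 3, 22 and 79. A further 2, 2 and 11 had a main region of their own and a second one shared with a neighbour. As a share of the members overlapped, 1.17%, 6.73% and 23.8% were joined (mean 10.6% ± 11.8, SD, n = 3). Without replicate 3 the mean was 3.95% over the same members. Over all combined regions of these parts of the arms that a replicate overlapped, 0.750%, 2.34% and 10.3% were joined. Among short regions with 1 gap under 3000 bp the shares were 1.43%, 2.93% and 13.0%, and among those with neither such gap they were 0% in every replicate. The rule gives a member 2 short gaps across which it can be joined, and nothing is read from its higher shares. A single member was joined in all 3 replicates, 63 were joined in replicate 3 alone, and 182 were separate in all 3. Of the 346 short regions with neither gap under 3000 bp, 300, 337 and 306 were separate in replicates 1, 2 and 3. Of the 599 with 1 such gap, 484, 557 and 478 were. No share over all combined regions is given for the separate counts, and nothing is read from how the members differ.

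**Figure D2:**
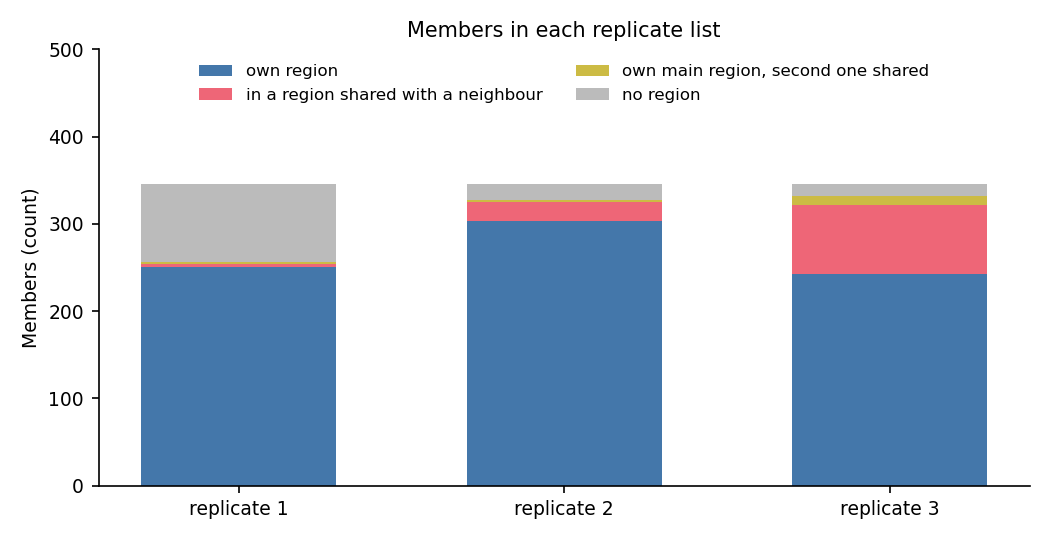
Number of the 346 members in each replicate list by how the replicate drew them, as stacked bars from 0. Replicate 1 has the most without a region (90) and replicate 3 the most in a region shared with a neighbour (79).

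The shorter a gap, the more often a replicate region spanned it. A replicate region spanned 4, 21 and 85 of the 605 gaps in replicates 1, 2 and 3, and 512 gaps (84.6%) were spanned in none. As shares these were 0.661%, 3.47% and 14.0%, against 0.642%, 2.76% and 10.9% of all 1558 gaps under 3000 bp on these parts of the arms. For gaps under 500 bp the shares were 1.90%, 9.48% and 32.2%. They were 0%, 0.840% and 10.9% for gaps of 500 to under 1000 bp, and 0%, 0% and 2.37% for gaps of 1000 to under 2000 bp. None of the gaps of 2000 bp or more beside members was spanned in any replicate list. Of the gaps under 500 bp that touch no member, 1.89%, 5.99% and 20.5% were spanned. The order of the replicates was the same in each class that held a spanned gap, apart from the tie of replicates 1 and 2 at 1000 to under 2000 bp.

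**Figure D3:**
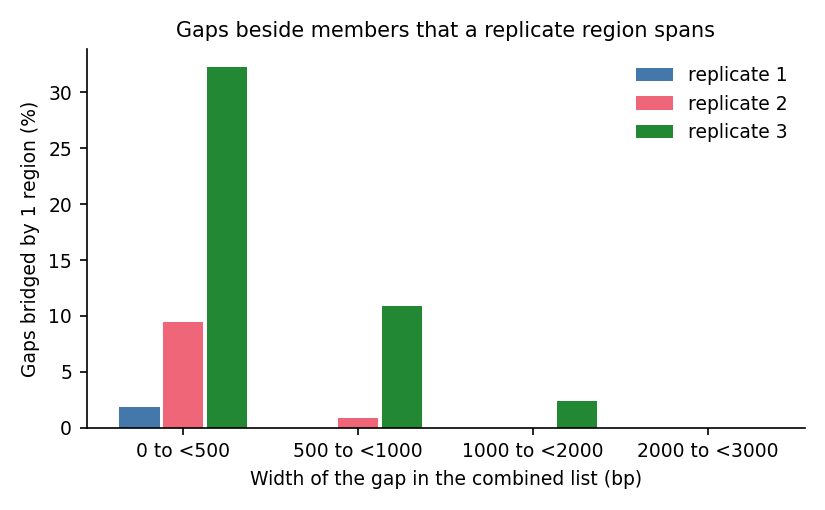
Share of the gaps beside members that 1 replicate region spans, by the width of the gap in the combined list; bars start at 0, with 211, 119, 169 and 106 gaps from left to right. Replicate 3 spans 32.2% of the gaps under 500 bp, and no replicate spans a gap of 2000 bp or more.

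By bases, 0.674%, 3.71% and 14.2% of the gaps beside members lay inside regions of replicates 1, 2 and 3 (mean 6.20% ± 7.10, SD, n = 3). Without replicate 3 the mean was 2.19% over the same gaps. The high value of replicate 3 was not limited to the members. In the 953 other gaps under 3000 bp on these parts of the arms, which touch no member, the shares were 0.429%, 2.92% and 12.0%, and over all bases outside combined regions they were 0.0431%, 0.283% and 1.38%. The part of replicate 3's calling in these values was not tested, and the difference between the 2 kinds of gap was not tested either.

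Separate replicate regions were slightly narrower than the member in the combined list. Their median width was 2281, 2488 and 2585.5 bp in replicates 1, 2 and 3, and the median ratio to the member's width was 0.830, 0.928 and 0.944 (mean 0.901 ± 0.0619, SD, n = 3). In 98.0%, 86.1% and 71.5% of cases the replicate region was the narrower. The median start lay 187, 73 and 63.5 bp inside the member, and the median end lay at -142, -85 and -97.5 bp from its end, so both edges moved inwards. Replicate regions that ran across a gap into a neighbour are not among the separate ones. These widths and edges can therefore lean towards narrower calls. Over all members, 61.5%, 82.8% and 81.5% of the bases lay in replicate regions (mean 75.2% ± 12.0, SD, n = 3).

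Members often did not meet the width and gap limits in a replicate's own list. With the same limits applied within a replicate's own list, the replicate region over a member was itself under 5000 bp with both gaps under 3000 bp for 108, 185 and 167 of the 346 members (31.2%, 53.5% and 48.3%). Of all regions in those lists on these parts of the arms, 14.0%, 13.0% and 15.0% met the limits. Members were chosen by the same limits in the combined list, and nothing is read from that difference. The limits were met in all 3 replicate lists by 66 members, in 2 by 85, in 1 by 92 and in none by 103. Without replicate 1 the count for both of the others was 116. So the name of short regions in tight chains holds for the combined list, by its rule, and for 66 members in every list.

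Members failed these limits in a replicate because they were not drawn, because a gap was 3000 bp or more, or because their region was 5000 bp or wider. In replicate 1, 90 were not drawn at all, 106 kept 1 gap under 3000 bp and 42 kept neither. In replicate 2 these counts were 19, 111 and 23, with 8 more in a region of 5000 bp or wider. In replicate 3 they were 14, 103 and 22, with 40 more in a region of 5000 bp or wider. Regions that sat next to members without being members numbered 494, and 65.0%, 75.1% and 80.0% of them were overlapped in replicates 1, 2 and 3. Over all 3253 combined regions on these parts of the arms the shares were 69.7%, 80.0% and 78.3%. Fewer than 2 replicate lists held 139 of these neighbours (28.1%), a share given without a background and not read further.

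Each replicate list held a similar number of short chained regions of its own. There were 414, 382 and 453, or 14.0%, 13.0% and 15.0% of the regions of that list on the same parts of the arms (mean 14.0% ± 0.998, SD, n = 3). Of these, 111, 192 and 179 overlapped a member, or 26.8%, 50.3% and 39.5%. Unlike the members, these regions needed no support from a second list. No share over all regions of each list is given, so nothing is read from these overlaps. By arm, the short chained shares were 13.9% ± 0.461 on 2L, 14.3% ± 1.02 on 3L and 13.8% ± 1.47 on 3R (SD, n = 3 each). These means differed by less than the SD of 3L or of 3R.

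The 66 members that met the limits in every list scored higher than the rest, but no higher than all members found in all 3 lists. The 223 members found in all 3 replicate lists, the 66 among them, had a median combined score of 0.567. The 123 found in 2 lists had 0.376. The median of the 66 was 0.565, against 0.486, 0.447 and 0.419 for those that met the limits in 2, 1 and 0 replicate lists. The median widths were 3131.5, 2790, 2913.5 and 2849 bp and showed no such order. The median larger gaps were 1391, 1322, 1345.5 and 1596 bp. These values describe the same lists that set the classes and were not tested.

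Scores of members ranked alike in the replicates. Across the 182 members with a region of their own in all 3, Spearman's rho of the deposited scores was 0.845 between replicates 1 and 2, 0.792 between 1 and 3 and 0.811 between 2 and 3. For the widths the values were 0.777, 0.780 and 0.787. The 3 lists share the arms, and wider regions scored higher within each, with a rho of 0.787, 0.742 and 0.824 over the separate members. Members are not replicates, and these correlations carry no p.

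**Figure D4:**
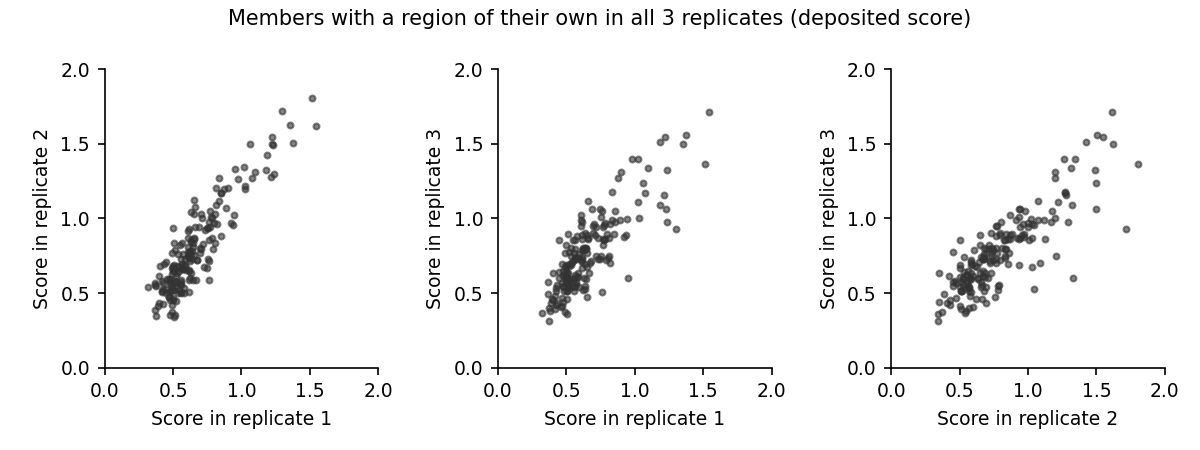
Deposited score of the 182 members that have a region of their own in all 3 replicates, 1 point per member, for each pair of replicates; Spearman's rho is 0.845, 0.792 and 0.811 from left to right. Scores of different lists may differ in scale, so the order of points is what the panels show.

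Each of the 5 highest-scoring members was a region of its own in every replicate. At the top, the member on 3R from 7046943 to 7051479 scored 1.65 in the combined list and 1.52, 1.81 and 1.36 in replicates 1, 2 and 3, and 98.4% ± 0.645 of its bases lay in replicate regions (SD, n = 3). Next was 3R from 20049056 to 20053463, with 1.53 in the combined list and 1.54, 1.62 and 1.71 in the replicates. They were 4537 and 4408 bp wide, close to the width limit.

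The next pair lay on 3L, from 5775598 to 5780473 with replicate scores of 1.30, 1.72 and 0.927, and from 4103075 to 4107587 with 1.36, 1.62 and 1.50. The fifth, on 3R from 21713948 to 21718762, scored 1.22, 1.55 and 1.54 in the replicates. Of the 5, only the member at 5775598 had less than 90% of its bases in some replicate, with 81.8% in replicate 3.

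The lowest scores came from narrow members of 1592 to 1764 bp. On 2L from 3144590 to 3146353 the combined score was 0.0544, with 0.239 and 0.231 in replicates 1 and 3 and no region in replicate 2. On 3L from 6960882 to 6962473 it was 0.182, with 0.348 and 0.276 in replicates 1 and 2 and no region in replicate 3. The third, on 2L from 10426536 to 10428257, was found in every list, with 0.198 in the combined list and 0.374, 0.346 and 0.315 in the replicates.

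The member with the smallest gaps on each arm was called over different shares of its width by the replicates. On 2L from 1596784 to 1598625, gaps of 8 and 13 bp flanked a region of 1842 bp. It was absent from replicate 1. In replicate 2, 99.8% of it lay in a region of 5307 bp, and in replicate 3, 49.1% of it lay in one of 6318 bp. On 3R from 14046086 to 14049335 the gaps were 30 and 7 bp, and 45.2%, 56.2% and 94.5% of the member lay in replicate regions. On 3L from 6077861 to 6078869 the gaps were 111 and 62 bp, and replicate 1 again had no region. That member belonged to the chain with the smallest span, 4.78 kb with 4 regions, in which replicate 1 had 0 regions and replicates 2 and 3 had 1 each.

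Regions on either side of the limits are given here for scale. The widest member, on 2L from 13198671 to 13203660, was 4990 bp wide with a score of 0.636, and the narrowest region kept out by width alone, on 2L from 5266651 to 5271655, was 5005 bp wide with 0.587. The member closest to the gap limit, on 3R from 14985814 to 14988459, had a larger gap of 2999 bp and a score of 0.457. The nearest region kept out by that gap, on 3L from 234653 to 236815, had one of 3034 bp and scored 0.351.

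Members beside a wide region and members among short regions were compared by score, since the rule uses neither the width of the neighbours nor the score. At least 1 neighbour was 5000 bp or wider for 185 members, made up of 145 with 1 such neighbour and 40 with 2, and 161 had short neighbours only. Among separately drawn members, the median score beside a wide neighbour was 0.566, 0.661 and 0.691 in replicates 1, 2 and 3 (144, 165 and 138 members). With short neighbours only it was 0.572, 0.614 and 0.653 (107, 138 and 104 members).

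The difference, wide minus short, was -0.00533, 0.0465 and 0.0382, with a mean of 0.0265 ± 0.0278 (SD, n = 3). It was positive in 2 of 3 replicates and within the spread between them. By arm, the mean difference was -0.00994 ± 0.0310 on 2L, 0.0496 ± 0.0392 on 3L and 0.0654 ± 0.00252 on 3R (SD, n = 3 each). It was positive in 3 of 3 replicates on 3L and 3R and in 1 of 3 on 2L, and the difference between arms was not tested. Averaged over 3 classes of replicate region width it was 0.0100 ± 0.00897 (SD, n = 3), positive in 3 of 3. Flipping the signs of the 3 differences in every way, an exact two-sided permutation test, gave p = 0.5. The smallest p that 3 replicates allow is 0.25, so this design cannot reach 0.05. With a wide neighbour set at 10000 bp or more the difference turned to -0.0461 ± 0.00546 (SD, n = 3), negative in 3 of 3, with an exact permutation p of 0.25. Without replicate 3 the mean was 0.0206 over the same members, and -0.00240 when the members were also chosen anew, as the 237 that both of the other lists held.

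Against their own neighbours in the combined list, 128 members scored below both, 135 between them and 83 above both. Most of those below both were also narrower than both, since 120 members were narrower than both neighbours and 91 of these 120 also scored below both. Among the 161 with short neighbours only, 51 scored below both and 61 above both.

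Other short regions on the same arms differed from the members in their surroundings by the rule, had similar median widths and had higher median scores. Of the 1291 short regions in at least 2 replicate lists, 599 had 1 gap under 3000 bp and 346 had neither. Median widths were 2889.5 bp for the members, 2930 bp with 1 such gap and 2899 bp with neither. Median scores in the combined list were 0.455, 0.518 and 0.517. Regions of 5 to 20 kb, of which there were 992, had a median score of 0.902.

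Within 5 classes of width, the score difference in the combined list, members minus regions with neither gap under 3000 bp, was -0.0548. For separately drawn replicate regions the difference, members minus those regions, was -0.00581, -0.0174 and -0.0221 in replicates 1, 2 and 3 (mean -0.0151 ± 0.00837, SD, n = 3). It was negative in 3 of 3. Against the regions with 1 gap under 3000 bp, the same difference was -0.0305 in the combined list and 0.00300, -0.0219 and -0.0232 in the replicates (mean -0.0140 ± 0.0148, SD, n = 3), negative in 2 of 3. Replicate 1 overlapped 74.0% of the members and 86.7% of the regions with neither gap, replicate 2 94.5% and 97.4%, and replicate 3 96.0% and 88.4%. For the regions with 1 gap under 3000 bp the shares were 82.0%, 96.8% and 93.5%. Over all 3253 combined regions on these parts of the arms they were 69.7%, 80.0% and 78.3%. All of these short regions had to be in at least 2 replicate lists, so nothing is read from their shares. These comparisons come from the lists that the rule used and were not tested.

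Coverage stayed higher around members well beyond the gaps that the rule fixed. At 10 to 50 kb from the midpoint of a member, 32.2%, 37.4% and 36.8% of positions lay in regions of replicates 1, 2 and 3 (mean 35.5% ± 2.88, SD, n = 3). Around short regions with 1 gap under 3000 bp the mean was 31.1% ± 2.38, and around those with neither it was 26.7% ± 2.13 (SD, n = 3 each). The parts of the arms as a whole were covered over 24.7%, 28.4% and 27.6%. In each replicate the order was the same, with members highest. Members cluster in dense stretches and share positions with each other, so this is a description with no test.

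Close to the members the profile rose and fell. Positions 2500 bp from the midpoint were covered in 25.7%, 37.3% and 43.8% of cases in replicates 1, 2 and 3, and positions 5000 bp from it in 49.6%, 62.0% and 62.4%. The dip marks the gaps and the rise the neighbouring regions. Around regions with neither gap under 3000 bp, positions at 2500 bp were covered in 0%, 1.01% and 4.48% of cases. There the width and gap limits fix the combined list at 0%. At 5000 bp the shares were 2.31%, 3.47% and 4.77%, and 5.64% in the combined list. The limits still fix the combined list at 0% there for the wider of these regions, so nothing is read from these low shares.

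**Figure D5:**
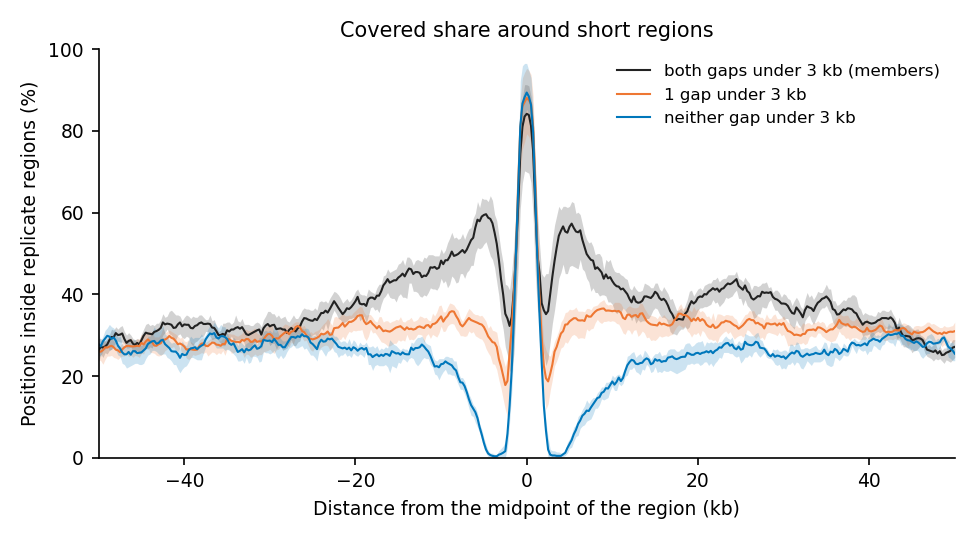
Share of positions inside replicate regions (vertical axis, percent) by distance from the midpoint of a short region in kb, for the 346 members and for short regions with 1 or neither gap under 3 kb; lines are means of the 3 replicates and bands run from the lowest to the highest replicate. At 10 to 50 kb the means are 35.5%, 31.1% and 26.7%.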

How the data were processed

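The authors deposited 4 lists of enriched regions in GFF3 format, 1 for each ChIP replicate and 1 for the series, each with a start, an end and a score per region. Per the submitters' processing notes, the aligner was Bowtie 0.12.7, and coordinates, printed counted from 1, are on FlyBase release 5, per the file headers. The region caller, its threshold, the scale of the deposited score, the treatment of multiply mapping reads and the libraries behind the combined list are all not given in the sources used. A list drawn with another merging distance or threshold would have other chains. Input samples have no list analysed here. The gene table at hand is on release 6 and was not used.

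Regions were sorted by position, gaps counted as uncalled bases, and overlaps counted from 1 bp with Python 3.11.15, numpy 2.4.6 and pandas 2.3.3. The functions were tested on simulated data with planted chains. Medians per replicate list were averaged, with SD over 3 replicates. The 1 test, of the score by neighbour width, was an exact two-sided permutation test that flips the signs of the replicate differences. Named regions are regions of the 3 chains with the most members (ties by longer span), the 5 highest and 3 lowest scores, the tightest member of each arm and those nearest the limits. Members, limits and comparisons were chosen with earlier results of these data known.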

Additional observations from a re-analysis of the deposited data

Results flagged for a closer look

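The same limits of width, gap and replicate support also picked short chained regions on sequences that the comparisons left out. On X and 2R these limits were applied over the whole length, the 2 Mb nearest the centromere included, unlike on the 3 arms. On X they picked 108 of 1099 combined regions (9.83%), with medians of 3002.5 bp in width and 0.539 in score. On 2R they picked 126 of 1138 (11.1%), with 2567.5 bp and 0.441. Chromosome 4 held 5 and the 2 Mb nearest the centromere of 2L, 3L and 3R held 13, while the heterochromatic scaffolds and the unplaced sequence held 0 among 63 combined regions. Replicates 1, 2 and 3 overlapped 80, 104 and 102 of the 108 on X, and 92, 120 and 117 of the 126 on 2R. They joined 1, 11 and 12 of those on X and 1, 9 and 24 of those on 2R to a neighbour. These regions had to be in at least 2 replicate lists, and no share over all combined regions of X or 2R is given beside the counts. Nothing is read from the counts, and whether X or 2R differ from the 3 arms was not tested.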

How the results depend on the processing

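Over all settings the member count ran from 36 to 427, the joined share from 0.439% to 15.3%, the share of gap bases in replicate regions from 1.75% to 9.09%, and the score difference by neighbour width from -0.0461 to 0.0760. The SD of the joined share and of the gap share exceeds their mean, so staying within it shows no stability. The number of members depended most on how the list was drawn: 182 with a width limit of 3000 bp, 223 with support from all 3 replicates, 80 after merging combined regions under 1000 bp apart, and 36 with the higher-scoring 50% of combined regions. Leaving out a replicate and choosing members anew gave 237 to 313 members, 2.74% to 14.9% joined, 1.75% to 9.09% of gap bases, and a score difference of -0.00240 to 0.0403. With the members kept, an alternative added after seeing the data, the values were 3.95% to 15.3%, 2.19% to 8.96% and 0.0164 to 0.0424. That difference also turned to -0.00414 with combined regions at least as wide as the narrowest replicate region, and to -0.0181 after the merging. With wide neighbours of at least 10000 bp, which changes both groups, it was -0.0461. Members short and chained in every list used numbered 77 to 116 when a replicate was left out and 102 with a gap limit of 4000 bp in the replicate lists, settings added after seeing the data, as was a stricter definition of joining by 50% of both regions, which gave 5.54%. The joined share was 0.439% after the merging, which removes the shortest gaps. The cause of these changes was not tested beyond what each setting removes. Depth per region is unknown, so members missing from a list were not shown to lack the mark. No paired analysis was possible because no region list of the input samples was analysed here.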
